A study of Mus musculus with 4 samples.

Results

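The comparison sets regulatory dendritic cells (DCreg) against haematopoietic stem cells (HSC) of the C57BL/6J mouse, using 2 of the 4 small RNA libraries of the series, 1 library a side. It asks which microRNAs (miRNAs) of the progenitor the regulatory cells hold again and which stay lost, so the mature dendritic cells (maDC) that DCreg were made from stand beside them as the step before, with immature dendritic cells (imDC) for reference. HSC were bone marrow cells sorted as c-Kit+ Sca1+ Lineage- at a purity above 95%, with no culture. For imDC, marrow progenitors spent 6 days in culture with GM-CSF at 10 ng/mL and IL-4 at 1 ng/mL. The maDC were grown with the same cytokines, were exposed to LPS at 10 ng/mL after a wash on day 4, and were selected with CD11c beads at day 8. DCreg were such maDC left on a monolayer of endothelial-like splenic stromal cells for 7 days or more, detached with trypsin and EDTA, and taken on CD11c beads again. The protocol, which all samples share, gives mice 5 to 6 weeks old as the source of bone marrow cells. The labels do not say whether animals were pooled, nor from which mice the stromal cells came. HSC and DCreg therefore differ in cell type, culture, cytokines, LPS, contact with stroma and selection at once, and these cannot be told apart. The labels name no transgene or deletion in any of the cells.

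A miRNA is a small RNA cut from a hairpin precursor. Loaded into an Argonaute protein, it lowers the translation and stability of messenger RNAs that pair with its seed, bases 2 to 8 from its 5′ end, so miRNAs with a shared seed can share targets. Blood stem cells are known for the miR-99/125/let-7 clusters, for miRNAs inside the Hox gene clusters, and for miR-130a and miR-126, while miR-17-92 and its paralogues are known for promoting proliferation and miR-146 and miR-155 for acting in the response to bacterial products. Regulatory dendritic cells are dendritic cells that restrain T cell responses, and the study describes these as makers of IL-10 and nitric oxide.

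The sequences below are the mature miRNAs on which the results turn, from RefSeq (GRCm38.p6), 5′ to 3′, with the seed in capitals. The deposited table holds the same letters for each of them. The first lines are 6 of the 9 progenitor miRNAs that were low in maDC and stood near the HSC level again in DCreg.
miR-10a-5p: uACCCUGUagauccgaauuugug
miR-99a-5p: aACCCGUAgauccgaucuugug
miR-146a-5p: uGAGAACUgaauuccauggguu
miR-27b-3p: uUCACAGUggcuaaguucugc
miR-30a-5p: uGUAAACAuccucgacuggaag
miR-322-5p: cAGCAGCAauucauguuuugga
The next lines are miRNAs that stayed low in DCreg. The seeds of miR-15b-5p and miR-16-5p are the letters of the miR-322-5p seed, and the seed of miR-30e-5p is that of miR-30a-5p, so these families fall on both sides.
miR-15b-5p: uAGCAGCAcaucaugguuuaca
miR-16-5p: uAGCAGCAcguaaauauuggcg
miR-503-5p: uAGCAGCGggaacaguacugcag
miR-30e-5p: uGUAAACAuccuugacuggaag
miR-92a-3p: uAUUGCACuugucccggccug
miR-25-3p: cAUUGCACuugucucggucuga
miR-363-3p: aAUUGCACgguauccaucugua
miR-17-5p: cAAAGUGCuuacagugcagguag
miR-93-5p: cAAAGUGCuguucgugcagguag
The last lines are miRNAs that were higher in DCreg than in HSC, among them a second carrier of the miR-99a seed and a second carrier of the miR-146a seed.
miR-99b-5p: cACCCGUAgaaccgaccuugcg
miR-146b-5p: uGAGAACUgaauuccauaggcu
miR-125a-5p: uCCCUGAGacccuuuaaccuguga
miR-125b-5p: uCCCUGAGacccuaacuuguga
let-7e-5p: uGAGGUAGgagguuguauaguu
miR-31-5p: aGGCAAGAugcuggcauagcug
miR-140-3p: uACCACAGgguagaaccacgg

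Levels are given in parts per 1000000 (ppm) of a library's deposited total, summed over the hairpins of each mature miRNA. The deposited values summed to 4226458 in HSC and 2725948 in DCreg, and the lists of unique reads held 6277096 and 4904897 reads. A value of 0 allows up to 0.710 ppm in HSC and 1.10 ppm in DCreg, taking 3 units of the deposited score as the floor. With no replicate there is no test, and every difference below compares 2 libraries and not 2 conditions. Folds of recounted reads carry an exact 95% interval, which covers counting error only, as copies made by PCR are not independent molecules. In such bulk samples fewer cells of a type and less RNA per cell cannot be told apart.

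The DCreg library held fewer miRNAs at a substantial level than the HSC library and put more of its total into a few of them. Of 1078 mature miRNAs, 161 reached 100 ppm in HSC and 114 in DCreg, with 100 in both. The 10 most abundant held 61.8% of the HSC total and 78.3% of the DCreg total, and 6 names were among the 10 of both libraries. In the deposited values miR-140-3p stood first in DCreg at 151631 ppm and behind let-7f-5p and let-7b-5p in HSC at 72747 ppm. let-7b-5p and let-7c-5p, of a family known from differentiated cells, followed at 142652 and 102576 ppm in DCreg and at 87051 and 59453 ppm in HSC. The order differed in recounted reads. There DCreg held 995845 reads of let-7c-5p, 806165 of let-7f-5p, 469743 of let-7a-5p and 344038 of let-7b-5p, against 309022 of miR-140-3p. miR-191-5p and miR-25-3p were among the 10 in HSC only, at 61246 and 31967 ppm, against 7052 and 3157 ppm in DCreg. miR-21-5p, which myeloid cells make in quantity, was among the 10 in DCreg only, at 61873 ppm against 19982 ppm in HSC.

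A miRNA was called different when it reached 100 ppm in HSC or DCreg and the libraries differed by at least 2-fold. Of 175 miRNAs tested so (173 distinct sequences), 34 were higher in DCreg, which is 19.4% of those tested, and 98 were lower, which is 56.0%. The remaining 43 lay within 2-fold. Of the 175, 61 reached the level only in HSC and 14 only in DCreg, so for these a difference was partly built into the choice. The median log2 ratio of DCreg over HSC was -1.43. It moved by 0.31 with the trimmed mean of M-values (TMM), by 0.63 with the median of ratios, by 0.58 when the 5 most abundant miRNAs were left out of the total, and by -0.28 with all reads of the lists as the total. With the median of ratios the split was 45 higher and 77 lower. Each scaling moves every log2 ratio by the same amount, here by less than 2-fold, so no called miRNA could change direction. Under all 4 of these scalings, 28 of the 34 higher and 77 of the 98 lower miRNAs stayed at least 2-fold apart.

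**Figure D1:**
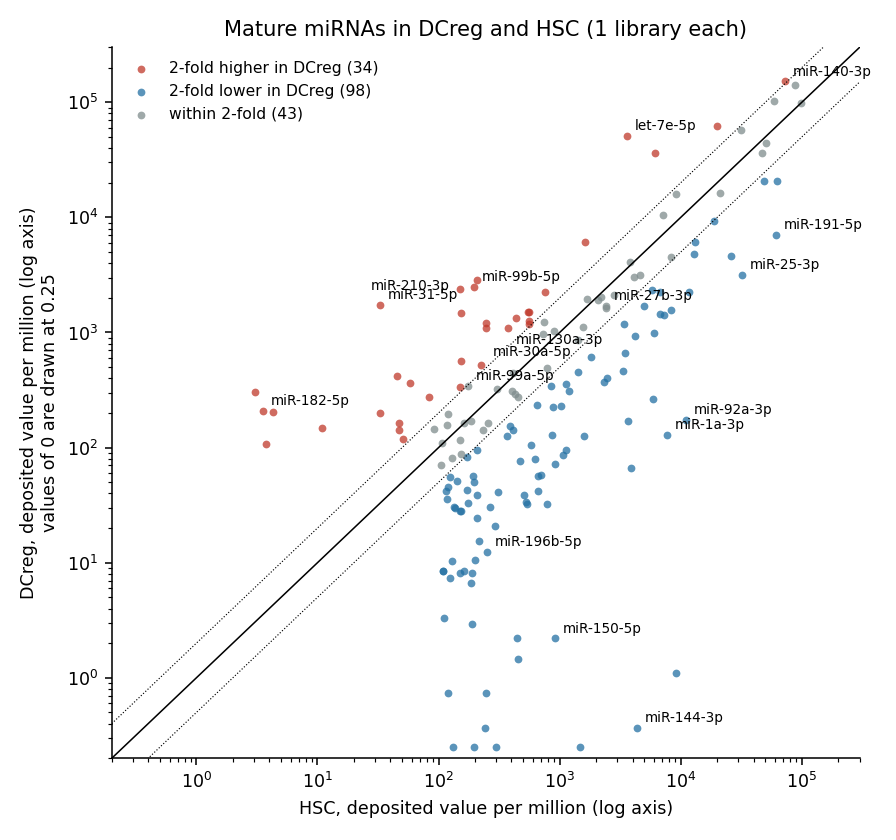
Level of each of the 175 tested miRNAs in HSC (horizontal, ppm of the deposited total, log axis) and DCreg (vertical, same unit, log axis), 1 library each; values of 0 are drawn at 0.25, and dotted lines mark 2-fold. The 98 lower miRNAs reach down to the floor of the DCreg library, whereas the 34 higher ones include miR-31-5p at 1738 ppm and let-7e-5p at 51264 ppm.

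Recounting the reads themselves gave a check on the direction of the deposited ratios, though levels differed between the sources for some miRNAs. Of the 132 called miRNAs, 121 had 20 or more recounted reads in the 2 libraries together, and 120 of these kept their direction. The exception was miR-3074-5p, whose sequence is the reverse complement of miR-24-3p over most of its length. The table lists it at 553 ppm in HSC and 1500 ppm in DCreg, close to the 557 and 1506 ppm of miR-24-3p, while the read lists hold 34 and 1 of its reads. The other 11 had fewer than 20 reads, and miR-191-5p, miR-130a-3p and miR-2182 had none in either library. Values of these 11 rest on the deposited table alone. In the recount itself 131 miRNAs were tested, of which 23 were higher (17.6%) and 73 lower (55.7%).

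**Figure D2:**
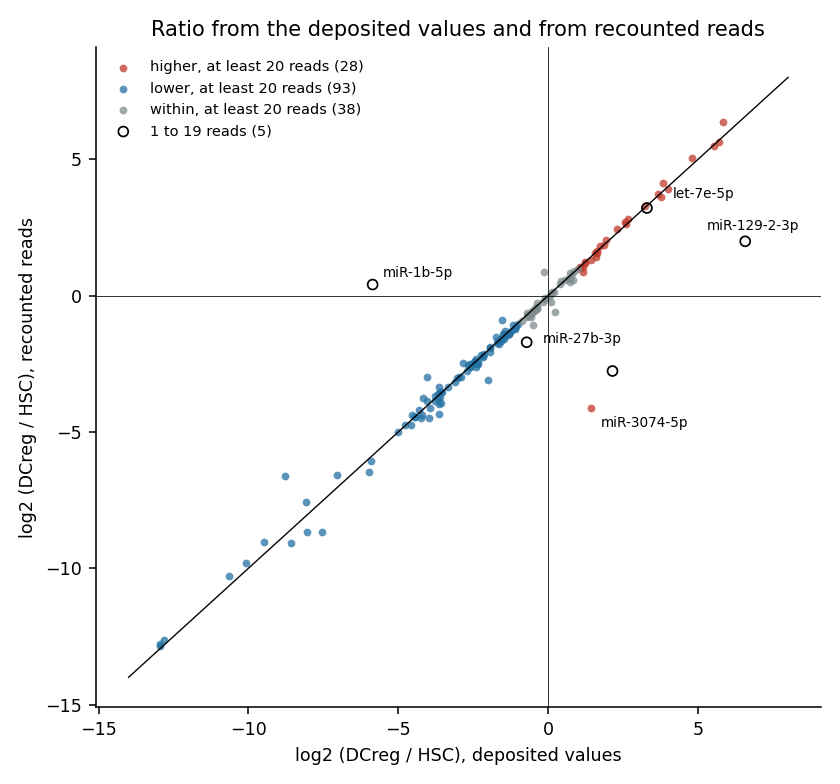
Log2 ratio of DCreg over HSC for the tested miRNAs, from the deposited values (horizontal) and from recounted reads (vertical), coloured by the call on the deposited values; open circles have 1 to 19 reads and miRNAs with no read are not drawn. Most points lie near the line of equality, and among those far from it are miR-3074-5p, with 34 and 1 reads, and miR-1b-5p, with 4 and 4.

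The progenitor miRNAs were those at 100 ppm or more in HSC. Of these 161, 88 (54.7%) were at least 2-fold lower in maDC than in HSC. In DCreg 9 of the 88 (10.2%) were held again, that is at least 2-fold above maDC and less than 2-fold below HSC. A further 8 (9.09%) were partly regained, at least 2-fold above maDC but still at least 2-fold below HSC. The largest group, 70 of 88 (79.5%), stayed lost, being less than 2-fold above maDC and at least 2-fold below HSC. miR-30d-5p met none of these definitions. The ratios share the HSC, maDC and DCreg libraries, so the classes describe these libraries and are not independent comparisons.

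**Figure D3:**
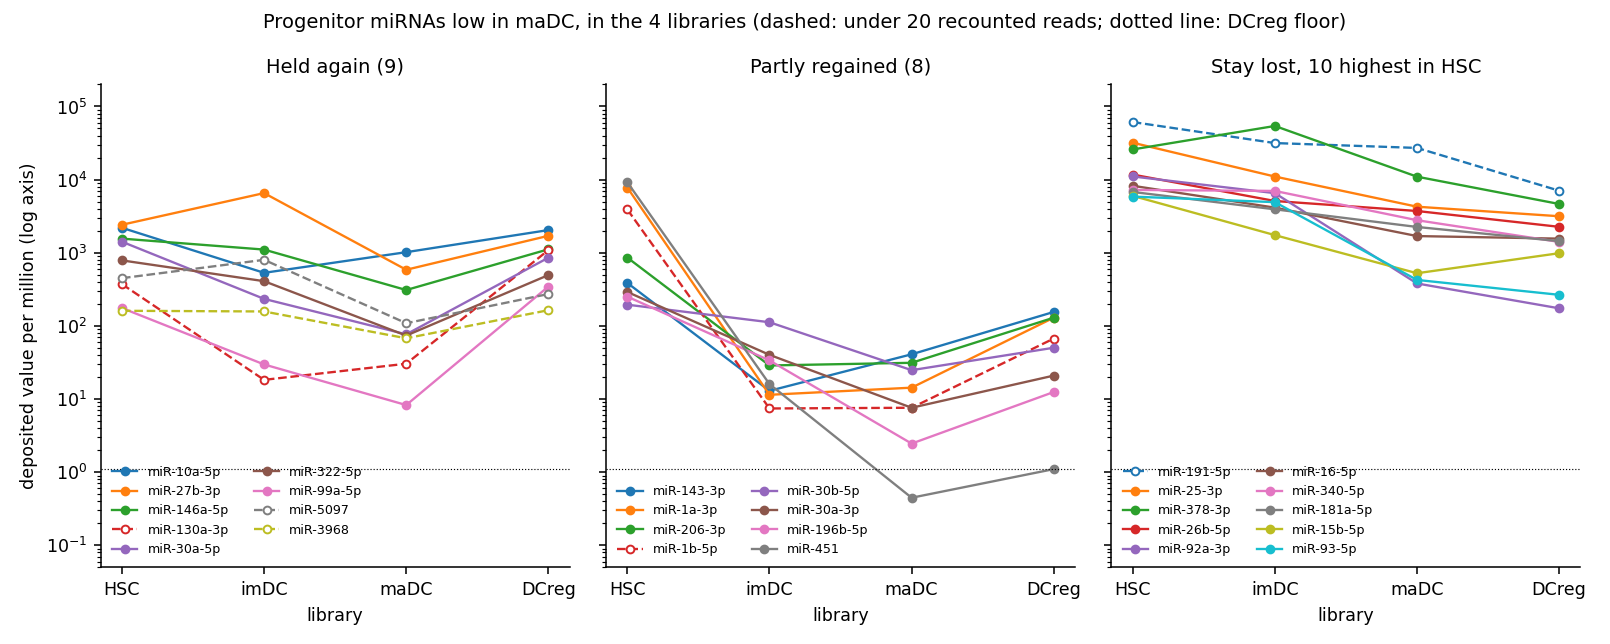
Level (ppm of the deposited total, log axis) in the 4 libraries of the 9 miRNAs held again, the 8 partly regained and the 10 of the stay-lost class that were highest in HSC, with dashed lines for miRNAs under 20 recounted reads and a dotted line at the DCreg floor. The held-again miRNAs are low in maDC and at least 2-fold higher in DCreg, whereas in the right panel the DCreg points lie at or below maDC, except that of miR-15b-5p.

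The miRNAs held again included 3 that are known from blood stem cells or lie among Hox genes: miR-99a-5p, miR-130a-3p and miR-10a-5p. miR-99a-5p, made from an intron of the noncoding gene Mir99ahg (hairpin at chr16:77598936-77599000, plus strand), stood at 175 ppm in HSC and 345 ppm in DCreg, with 29.7 ppm in imDC and 8.27 ppm in maDC. It was thus lowest in maDC and higher in DCreg than in the stem cells. DCreg held 1.97-fold the HSC level (recount 1.97-fold, 1.76 to 2.22) and 41.7-fold the maDC level (recount 40.5-fold, 27.4 to 62.4). miR-130a-3p (chr2:84741115-84741178, minus strand), which is known in stem cells and megakaryocyte precursors, was listed at 372 ppm in HSC and 18.3 in imDC, then 30.4 in maDC and 1086 in DCreg, and no reads were recounted for it. miR-10a-5p lies between Hox genes on chr11:96317165-96317274, plus strand. Its level was 2193 ppm in HSC against 532 in imDC, 1018 in maDC and 2042 in DCreg. HSC and DCreg were close, with a recounted ratio of 0.920 (0.886 to 0.955). Its ratio to maDC was at the limit of the definition, 2.01-fold in the table and 1.91-fold in the recount (1.83 to 2.00), and with TMM, the median of ratios or the top 5 left out it no longer counted as low in maDC.

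miR-30a-5p and miR-322-5p each had over 1000 recounted reads in both libraries. miR-30a-5p, a regulator of autophagy and of differentiation genes, was listed at 1415 ppm in HSC and 234 in imDC, then 76.6 in maDC and 856 in DCreg. Both imDC and maDC were low. DCreg held 60.5% of the HSC level and 11.2-fold the maDC level (recount 10.4-fold, 9.08 to 11.9). With all reads as the total its log2 ratio, -0.72 with the deposited total, just passed the 2-fold limit and it counted as partly regained. With TMM, the median of ratios or the top 5 left out it stayed held again. miR-322-5p, the mouse form of miR-424 and a member of the cell-cycle family of miR-15 and miR-16, was at 786 ppm in HSC against 409 in imDC, 73.7 in maDC and 495 in DCreg. The low point was again maDC, and DCreg reached 63.0% of HSC and 6.72-fold maDC (recount 6.47-fold, 5.62 to 7.47).

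miR-146a-5p, an inhibitor of the adaptors IRAK1 and TRAF6 below Toll-like receptors, was at 1561 ppm in HSC and 1105 in imDC, then 309 in maDC and 1115 in DCreg. DCreg was close to imDC and lay at 71.4% of HSC (recounted ratio 0.677, 0.646 to 0.709). miR-27b-3p, from the miR-23b/27b/24 cluster, was at 2414 ppm in HSC against 6544 in imDC, 585 in maDC and 1705 in DCreg. Its highest library was imDC. Many of its reads match miR-27a-3p equally well: with them shared out the recounted ratio to HSC was 0.468 (0.453 to 0.484), which puts it among the partly regained, and with them left out the log2 ratio was -0.04. The log2 ratios of miR-146a-5p and miR-27b-3p, -0.48 and -0.50, became 0.14 and 0.13 with the median of ratios, and that of miR-10a-5p, -0.10, became 0.53, so no direction is given for these. The last members, miR-5097 and miR-3968, were at 449 and 161 ppm in HSC and 273 and 164 ppm in DCreg, but miR-5097 had 6 and 1 recounted reads and miR-3968 none.

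Support for the class was uneven. In the recount 3 of the 9 met the same definition, namely miR-30a-5p, miR-322-5p and miR-146a-5p. miR-99a-5p had a like pattern there but fell under the level asked of HSC, at 96.6 ppm. Under all 4 other scalings and a larger pseudocount, 5 of 9 stayed in the class: miR-99a-5p, miR-130a-3p, miR-146a-5p, miR-322-5p and miR-27b-3p. When a miRNA also had to be 2-fold low in imDC, 4 remained, which were miR-99a-5p, miR-130a-3p, miR-10a-5p and miR-30a-5p.

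The 8 partly regained miRNAs lay between 0.0120% and 40.2% of their HSC levels. miR-196b-5p, made from the Hoxa9 locus (chr6:52230081-52230165, minus strand) and known to promote myeloid progenitor growth, was at 251 ppm in HSC and 33.7 in imDC, then 2.46 in maDC and 12.5 in DCreg. DCreg held 4.96% of the HSC level, and the ratio to maDC rested on 8 and 27 recounted reads (4.74-fold, 2.09 to 12.1). miR-30a-3p, the other arm of the miR-30a hairpin, was at 291, 40.2, 7.60 and 20.9 ppm in the same order, and miR-30b-5p at 195, 112, 24.8 and 50.3 ppm. So DCreg held 60.5% of the HSC level of one arm of miR-30a and 7.19% of that of the other. miR-451 reached 9189 ppm in HSC and was at or under the floor in both maDC (0.447 ppm) and DCreg (1.10 ppm), so its place in this class has no weight.

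The remaining partly regained miRNAs are markers of tissues other than blood. miR-1a-3p and miR-206-3p, both known from muscle, were at 7773 and 858 ppm in HSC, 11.4 and 28.8 in imDC, 14.3 and 31.3 in maDC and 129 and 129 ppm in DCreg. HSC was far above the other libraries, and DCreg lay above maDC and imDC. miR-133a-3p and miR-133b-3p, which muscle also makes, were at 44.2 and 2.37 ppm in HSC and at 0 in DCreg. miR-1b-5p is antisense to miR-1a-3p and was listed at 0.503 of its level in HSC and 0.518 in DCreg, but 4 reads were recounted in each library. miR-143-3p, a marker of smooth muscle and stroma, was at 386 ppm in HSC against 12.9 in imDC, 40.9 in maDC and 155 in DCreg (recount over maDC 3.25-fold, 2.70 to 3.94). With the median of ratios or the top 5 left out it counted as held again.

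These markers bear on what else the libraries hold. DCreg had been kept on stromal cells, and over the 9 stromal or mesenchymal names the summed level was 1398 ppm in HSC and 86.1 in imDC, then 236 in maDC and 301 in DCreg. Of the 9, 3 were tested and were lower in DCreg than in HSC, beside 56.0% of all tested. They are 2 sequences, miR-143-3p and that of both miR-199a-3p and miR-199b-3p, and with the median of ratios miR-143-3p was within 2-fold. Beside miR-143-3p, miR-145-5p was at 9.90 ppm in DCreg and 2.68 ppm in maDC, but miR-199a-3p was at 79.6 ppm in DCreg and 120 ppm in maDC, and miR-218-5p was at 0 in DCreg. miR-126-3p and miR-126-5p, which endothelial cells make at a high level, were at 0.367 and 1.10 ppm in DCreg, at or under the floor, and at 49.2 and 71.7 ppm in HSC. The part of stromal RNA in the miRNAs held again was not tested. Of the 4 muscle names, both tested ones were lower in DCreg, beside 56.0% of all tested. The list summed to 8678 ppm in HSC and 259 ppm in DCreg, and to 22736 and 405 ppm in recounted reads. The 4 erythroid names, among them miR-144 and miR-451 of red cell precursors, summed to 15231 ppm in HSC and 2.20 ppm in DCreg. Each of the 4 was at or under the floor in the DCreg values of the table, miR-144-5p being at 0, while miR-486-5p had 10540 recounted reads in HSC and 19 in DCreg. What part cells other than sorted stem cells have in the HSC values was not tested.

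The 70 miRNAs that stayed lost made up 22.7% of the HSC total and 3.11% of the DCreg total. Their median log2 ratio was -3.57, beside -1.43 over all tested, though the class is defined by a low ratio. With miRNAs at 0 set to the floor it was again -3.57, and that of the miR-17-92 group given next was again -4.08. In DCreg 53 of the 70 were below maDC, 20 of them by 2-fold or more. The class leaves out miRNAs at least 2-fold above maDC, so part of this was built into the choice. In imDC 36 of the 70 were at least 2-fold below HSC, and 34 were not. The same class was found for 49 of the 70 in the recount, and 49 of 70 stayed in it under all 4 other scalings and the larger pseudocount.

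The tested members of the miR-17-92 group and its paralogues were all lower. These were 8 of 8, under each of the 4 other scalings too, beside 56.0% of all tested, and all 8 were in the stay-lost class, beside 79.5% of the progenitor miRNAs low in maDC. The median log2 ratio was -4.08, and -4.12 in the recount. Among the members, miR-17-5p, miR-19b-3p, miR-20a-5p and miR-363-3p reached the level asked for testing only in HSC. For these the call was partly built into the choice. The others, miR-92a-3p, miR-25-3p, miR-93-5p and miR-106b-5p, reached that level in both HSC and DCreg. miR-92a-3p, made from clusters on chromosomes 14 and X, was at 11043 ppm in HSC against 6531 in imDC, 380 in maDC and 174 in DCreg. Its level was lower in maDC than in imDC and lowest in DCreg, 63.5-fold below HSC (recount 87.7-fold, 79.9 to 96.6). miR-25-3p, with the same seed and made inside the replication gene Mcm7 (chr5:138165321-138165404, minus strand), was at 31967, 11014, 4263 and 3157 ppm, 10.1-fold lower in DCreg (recount 10.1-fold, 9.89 to 10.4). miR-93-5p, its neighbour in Mcm7, was at 5857, 4920, 425 and 266 ppm and 22.0-fold lower (recount 22.0-fold, 20.2 to 24.0). miR-363-3p, from the X-linked cluster, went from 298 ppm to 0, which is at least 271-fold lower against a floor of 3 units in the DCreg library; its recounted reads, 831 and 0, give a lower limit of 170-fold. Summed over every name with the seed AUUGCAC, which miR-25, miR-92a and miR-363 share, the level was 4.34% of the HSC total and 0.341% of the DCreg total. The seed AAAGUGC of miR-17 and miR-93 went from 0.958% to 0.0766%.

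The lowest ratios of all tested were those of miR-144-5p, miR-144-3p and miR-451, of red cell precursors. miR-144-3p was at 4328 ppm in HSC and 0.952 in imDC, then 0.447 in maDC and 0.367 in DCreg, with 14059 recounted reads in HSC and 1 in DCreg, a 10637-fold difference (1909 to 420150). miR-150-5p, of mature lymphocytes, was at 914, 17.1, 1.56 and 2.20 ppm, with 2514 and 3 reads (634-fold, 217 to 3076). Of 6 tested lymphoid miRNAs 5 were lower, beside 56.0% of all tested, and all 4 that were low in maDC stayed lost, beside 79.5%. Their median log2 ratio was -3.55, and -2.47 over the 5 tested in the recount. miR-181a-5p, which tunes T cell receptor signalling, was at 6783, 3926, 2253 and 1441 ppm and 4.71-fold lower in DCreg. miR-181d-5p was at 3685, 764, 346 and 169 ppm and 21.8-fold lower. miR-342-3p lay within 2-fold, at 2070 ppm in HSC and 1914 ppm in DCreg.

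Of 9 tested myeloid miRNAs, 3 were higher, 4 lower and 2 within 2-fold in DCreg, beside 19.4% higher and 56.0% lower of all tested. The list's median log2 ratio of 0.11 became -0.17 with all reads as the total and was -0.60 in the recount. miR-223-3p, of granulocytes and monocytes, was at 3438 ppm in HSC against 2264 in imDC, 635 in maDC and 669 in DCreg. miR-142-3p, of all blood lineages, was at 1133, 861, 366 and 94.6 ppm, lowest in DCreg. miR-22-3p and miR-24-3p were higher, at 436 and 557 ppm in HSC and 1340 and 1506 ppm in DCreg. In the list of dendritic cell function 3 of 6 were higher and 3 lower, beside 19.4% and 56.0% of all tested. Its median of -0.18 became 0.13 with TMM, 0.45 with the median of ratios and -0.46 when scaled to all reads, and was -2.07 over the 5 tested in the recount. Among the 3 higher, miR-511-3p had 0 and 3 recounted reads, and miR-31-5p reached the level asked for testing only in DCreg. Among the 3 lower, miR-148a-3p and miR-30b-5p reached it only in HSC. For miR-31-5p, miR-148a-3p and miR-30b-5p the call was thus partly built into the choice. miR-148a-3p, which restrains antigen presentation, was at 783 ppm in HSC and 32.6 ppm in DCreg, whereas miR-152-3p, which carries a closely related sequence, was at 753 and 2258 ppm.

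**Figure D4:**
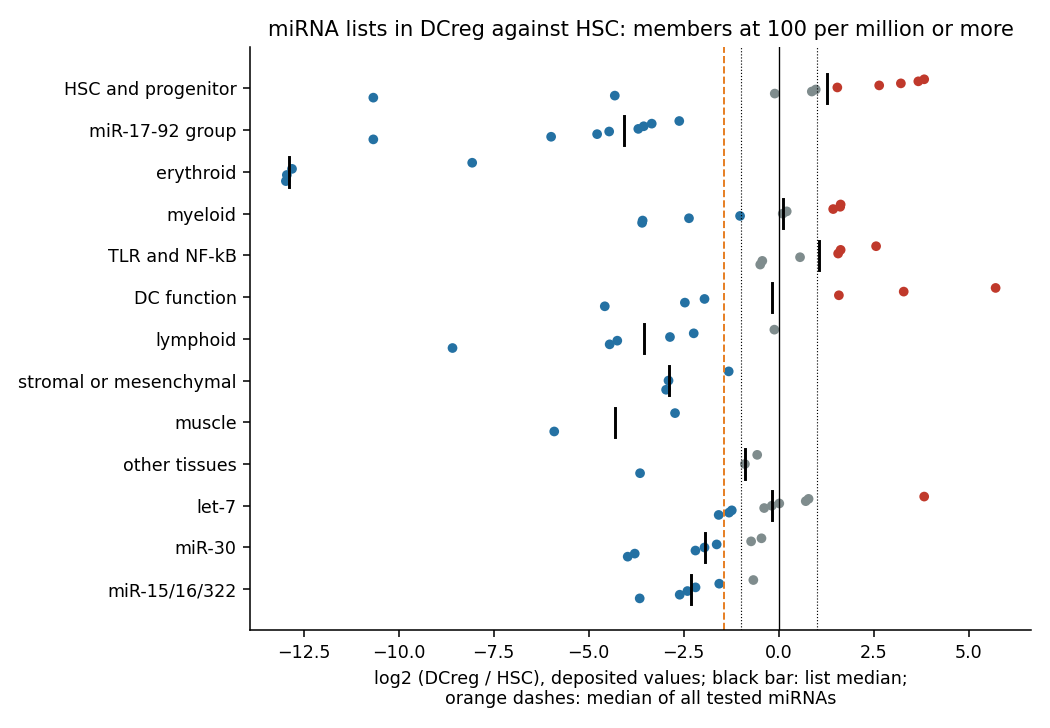
Log2 ratio of DCreg over HSC (deposited values) for each list member at 100 ppm or more in either library, with red for 2-fold higher, blue for 2-fold lower and grey for within 2-fold; black bars are list medians and the orange line is the median of all 175 tested miRNAs, -1.43. All 8 members of the miR-17-92 group lie to the left, whereas the HSC and progenitor list runs from miR-363-3p at the left to let-7e-5p at the right.

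Of the 16 names in the list of HSC and progenitor miRNAs, 10 were tested, with 5 higher, 2 lower (miR-196b-5p and miR-363-3p) and 3 within 2-fold, beside 19.4% higher and 56.0% lower of all tested. The median log2 ratio was 1.26, and 0.98 over the 9 tested in the recount. With TMM, the median of ratios or the top 5 left out, 7 of the 10 were higher and 2 lower. Among the members called higher, miR-125a-5p and miR-125b-5p reached 100 ppm only in DCreg. The lower miR-196b-5p and miR-363-3p reached it only in HSC. For these members the call was partly built into the choice. miR-130a-3p, also called higher, had no recounted reads. The names not tested, under 100 ppm in both libraries, also went both ways. miR-126-3p, miR-126-5p and miR-196a-5p were at 49.2, 71.7 and 19.4 ppm in HSC and 0.367, 1.10 and 5.14 ppm in DCreg. miR-10b-5p and miR-193b-3p were at 15.4 and 5.44 ppm in HSC and 55.4 and 13.2 ppm in DCreg. miR-100-5p was at 39.7 ppm in HSC and 33.4 ppm in DCreg. The members called higher besides miR-130a-3p had these levels. miR-99b-5p was at 195 ppm in HSC and 755 in imDC, then 987 in maDC and 2497 in DCreg, and let-7e-5p, whose hairpin lies in the gene Spaca6 (chr17:17830352-17830444, plus strand), was at 3606, 6943, 26478 and 51264 ppm. For both, HSC was the lowest library and DCreg the highest. let-7e-5p was 14.2-fold higher in DCreg than in HSC (recount 17.6-fold, 17.2 to 18.0). miR-125a-5p, from the same gene, was at 45.4, 50.8, 108 and 423 ppm. miR-125b-5p, which sustains stem cell survival, was at 58.0, 13.5, 16.1 and 363 ppm, 6.27-fold higher in DCreg than HSC (recount 6.96-fold, 6.17 to 7.88). It resembled miR-99a-5p in being low in imDC and maDC, but had not reached 100 ppm in HSC and so was not counted among the progenitor miRNAs.

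Members that share a seed fell into different classes. The 5 names with the miR-30 seed GUAAACA were miR-30a-5p, held again, miR-30b-5p, partly regained, miR-30c-5p and miR-30e-5p, which stayed lost, and miR-30d-5p, and the seed summed to 0.729% of the HSC and 0.441% of the DCreg total. The list of 7 miR-30 names, which adds the other arms of miR-30a and miR-30e, had 5 lower and 2 within 2-fold. Of all tested 56.0% were lower. miR-30e-5p, whose hairpin is in an intron of Nfyc (chr4:120772606-120772697, minus strand), was at 1408 ppm in HSC and thus at the level of miR-30a-5p there, but at 454 ppm in DCreg, 3.10-fold lower (recount 3.39-fold, 3.16 to 3.65). In the list of miR-15, miR-16 and miR-322, which also holds miR-503-5p with another seed, 5 of 6 tested were lower, beside 56.0% of all tested. The member held again was miR-322-5p. With the median of ratios or the top 5 left out, 4 of the 6 were lower. miR-16-5p was at 8239 ppm in HSC against 4137 in imDC, 1691 in maDC and 1560 in DCreg, and miR-15b-5p at 5996, 1742, 525 and 986 ppm. Summed over the seed AGCAGCA, without miR-503-5p, the level went from 1.70% to 0.367% of the library. The miR-146 seed went the other way, from 0.774% to 3.77%, since miR-146b-5p was listed at 6182 ppm in HSC and 89225 in imDC, then 67585 in maDC and 36546 in DCreg. In recounted reads the same seed was 0.272% and 1.18%. let-7 members with the seed GAGGUAG held 45.7% of HSC and 51.8% of DCreg values, and 68.1% and 74.7% in recounted reads. Of 9 tested let-7 family names 1 was higher, 3 lower and 5 within 2-fold, beside 19.4% higher and 56.0% lower of all tested. With TMM 3 were higher and 1 lower, so no direction is given for the family.

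Neighbouring hairpins, and arms of one hairpin, also parted. miR-322 and miR-503 lie within 10 kb on the X chromosome. miR-503-5p, close to the miR-15 family in its seed, was at 4230 ppm in HSC against 1946 in imDC, 863 in maDC and 928 in DCreg and stayed lost, whereas miR-322-3p was at 1607, 787, 918 and 6102 ppm, highest in DCreg. In the miR-23b/27b/24-1 cluster on chromosome 13, miR-27b-5p was at 267 ppm in HSC and 30.4 ppm in DCreg and stayed lost. From the same hairpin, miR-27b-3p was held again in the deposited values and partly regained in the recount. By contrast, the 3 hairpins of miR-106b, miR-93 and miR-25 were all lower in their main arms, 6.13-, 22.0- and 10.1-fold.

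Because arms of one hairpin differed, the share of the 3′ arm was computed from recounted reads. This covered 87 hairpins with both arms in the table and at least 100 recounted reads in HSC and in DCreg. Of these, 82 had reads on both arms. Printed below are the hairpins of miR-30a and miR-322 from RefSeq (GRCm38.p6), as RNA, with the 2 mature arms in capitals.
Mir30a: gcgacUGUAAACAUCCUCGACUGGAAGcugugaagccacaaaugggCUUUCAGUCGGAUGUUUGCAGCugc
Mir322: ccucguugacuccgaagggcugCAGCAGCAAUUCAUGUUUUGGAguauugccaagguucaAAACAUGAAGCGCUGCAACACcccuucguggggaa
They lie on chr1:23272269-23272339, plus strand, and chrX:53054255-53054349, minus strand. The 3′ arm of miR-322 held 58.3% of the hairpin's reads in HSC (exact 95% interval 57.0% to 59.6%), 55.9% in imDC, 90.0% in maDC and 90.4% in DCreg (89.8% to 90.9%). So DCreg regained much of the 5′ arm's level but kept the arm balance of maDC. For miR-30a the 3′ arm held 16.5% in HSC and 15.4% in imDC, then 6.27% in maDC and 2.24% in DCreg (1.63% to 3.01%). miR-30e showed 31.6%, 31.5%, 8.70% and 6.52%, and miR-17 showed 55.8%, 51.7%, 79.4% and 80.1% in the same order. In these 4 hairpins, picked after their values were seen, HSC and imDC lay on one side and maDC and DCreg on the other. miR-223 differed from this, with 87.2%, 78.6%, 83.4% and 95.2%.

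**Figure D5:**
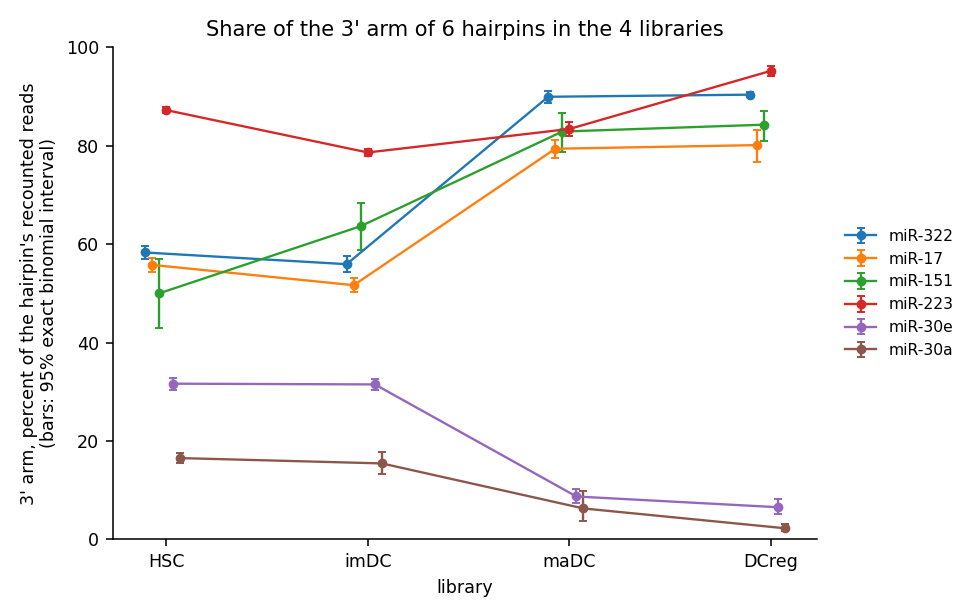
Share of the 3′ arm among the recounted reads of 6 hairpins (vertical, percent) in the 4 libraries, with bars for exact 95% binomial intervals that cover counting error only. For miR-322 the share is 58.3% in HSC and 90.4% in DCreg, whereas for miR-30a it is 16.5% and 2.24%.

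Of the 10 miRNAs with the highest ratios to HSC, some were high in DCreg alone and others in imDC and maDC too. miR-31-5p, known to act on Foxp3 and the cytoskeleton, was at 33.1 ppm in HSC against 12.6 in imDC, 34.9 in maDC and 1738 in DCreg. DCreg alone was high, 52.5-fold above HSC (recount 50.3-fold, 41.1 to 62.3). miR-182-5p, from the miR-183 cluster, was at 3.55, 38.3, 17.9 and 208 ppm, 58.5-fold above HSC (recount 85.7-fold, 48.8 to 167, on 12 and 778 reads). Of the 778 reads 305 were one sequence of 16 nt, the shortest length accepted, and with reads of 18 nt or more the recount was 65.8-fold (34.3 to 145). miR-129-5p was at 3.79, 1.71, 0.894 and 107 ppm (recount 33.9-fold, 21.2 to 57.8). Other large ratios were shared with imDC and maDC. miR-210-3p, which hypoxia induces, was at 150 ppm in HSC and 4955 in imDC, then 2630 in maDC and 2410 in DCreg. miR-34c-5p, a p53 target, was at 4.26, 127, 237 and 202 ppm in the same order. The highest listed ratio, that of miR-129-2-3p at 3.08 ppm in HSC and 303 ppm in DCreg, rested on 0 and 1 recounted reads.

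Of the list of Toll-like receptor and NF-kB miRNAs 6 of 14 names were tested, with 3 higher in DCreg than HSC, none lower and 3 within 2-fold (median log2 1.06), beside 19.4% higher and 56.0% lower of all tested. With the median of ratios 4 were higher. The median was 0.79 with all reads as the total and 0.55 over the 5 tested in the recount. Among the 3 higher, miR-155-5p reached the level asked for testing only in DCreg, so its call was partly built into the choice. In the recount miR-155-5p was not tested. miR-155-5p, which drives dendritic cell activation, was at 47.6 ppm in HSC against 2609 in imDC, 1651 in maDC and 141 in DCreg. DCreg thus lay near the stem cells, though still 2.96-fold above them (recount 2.96-fold, 2.44 to 3.60). miR-221-3p and miR-222-3p, which are known to hold back Kit, were within 2-fold, at 7093 and 2839 ppm in HSC and 10475 and 2106 ppm in DCreg.

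Of the 73 progenitor miRNAs that were not low in maDC, 33 were within 2-fold of HSC in DCreg, 20 were higher and 20 were lower. The lower ones were at least 2-fold below HSC in DCreg but not in maDC. They include let-7g-5p, at 62014 ppm in HSC and 49326 in imDC, then 42997 in maDC and 20770 in DCreg, and miR-181b-5p, at 3368, 2627, 1831 and 464 ppm (recount 5.54-fold lower than HSC, 5.29 to 5.81).

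The read ends of miR-140-3p, first in the deposited values of DCreg, differed between the libraries as well. Of 199165 reads of miR-140-3p in HSC, 32.6% began at the annotated first base and 66.2% began 1 base downstream. In DCreg, with 309022 reads, these shares were 19.1% and 79.2%. The corresponding downstream share was 60.1% in imDC and 51.9% in maDC, so DCreg was highest and maDC lowest. A start 1 base downstream moves the seed by 1 base on the sequence printed above. For miR-322-5p, reads that began 1 base upstream made up 3.89% in HSC against 5.72% in imDC, 10.0% in maDC and 14.5% in DCreg.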

How the data were processed

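Small RNA of 18 to 30 nt was ligated to adaptors, amplified for 12 cycles and sequenced on the Solexa platform, 1 library for each of 4 mouse cell populations, per the labels' protocols. The authors removed reads of other RNA classes and compared the rest with miRBase release 19, per the labels. The authors deposited 1 table with a whole-number score for each of 1195 hairpin entries, which its header calls normalised; neither the normalisation nor the aligner is stated in the labels or headers. They also deposited lists of unique reads with their copies.

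Scores were summed over the 715 hairpins for 1078 mature miRNAs and scaled to a total of 1000000. Log2 ratios used a pseudocount of 0.5. Because the table is a score, and with 1 library a group, no count model was used and there are no p-values. Reads were recounted by exact match to the mature sequences of the table: a match of 16 nt or more, starting no further than 2 nt from the annotated start, with at most 5 unmatched 3′ bases, the longest match taken and ties shared equally. This placed 82.8% of HSC and 80.2% of DCreg reads. Intervals are exact at 95% (Clopper-Pearson). The recount, the call rule and the intervals were tested on simulated data. Close paralogues (let-7 members, miR-27a and miR-27b, miR-199b-3p and miR-199a-3p) share reads, and their separate values are uncertain.

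All miRNAs of the held-again and partly regained classes are named. Other names were drawn from the 10 with the largest ratio each way, the 10 of the stay-lost class highest in HSC, the 10 most abundant of each library, members of 15 lists at 100 ppm or more, and miRNAs called on one source only. Not every member of these sets is named in the text. Further ones were chosen after their values were seen. The members, classes and lists were chosen with earlier results of these data known. No member of the endothelial and Dlk1-Dio3 lists reached 100 ppm. Of 3 tested names of the list of other tissues 1 was lower (median log2 -0.89), beside 56.0% of all tested. That name, miR-200c-3p, reached 100 ppm only in HSC. Mature sequences and hairpin positions are from RefSeq (GRCm38.p6), which matched 857 of the 1078 names by sequence, and host genes from GENCODE release 21 of the mouse. Python 3.11.15, pandas 2.3.3, NumPy 2.4.6, SciPy 1.17.1 and Matplotlib 3.10.9 were used.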

Additional observations from a re-analysis of the deposited data

How the results depend on the processing

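No paired analysis was possible because each group has 1 library and the labels give no replicate numbers. For the same reason no replicate could be left out. The 34 higher and 98 lower miRNAs became 75 and 175 with a level of 10 ppm asked, and 19 and 38 with 1000 ppm, where fewer miRNAs are tested; the 34 became 17 with a fold of 4. The 88 progenitor miRNAs low in maDC became 169 at 10 ppm, 32 at 1000 ppm and 47 when a low imDC level was also asked. Those held again, 9, became 28 at 10 ppm, 4 at 1000 ppm, 4 with a fold of 4, 4 with imDC also low and 3 in recounted reads. Those partly regained, 8, became 20 at 10 ppm, 3 at 1000 ppm and 4 with a fold of 4. Those that stayed lost, 70, became 116 at 10 ppm, 24 at 1000 ppm and 36 with imDC also low. Scaling and a pseudocount of 5 kept each of these 6 counts within 1.5 times its value, with 6 to 10 held again and 55 to 72 staying lost. So did 3 alternatives chosen after seeing the data: the highest hairpin entry in place of the sum, at least 20 recounted reads, and no miRNA at or under the floor in both maDC and DCreg. Reads placed were 79.1% of HSC and 74.1% of DCreg when the 5′ end had to be the annotated one, and 81.7% and 79.5% when reads with several matches were left out. The log2 ratio of miR-1b-5p, -5.86 in the table, was 0.40 on 4 and 4 recounted reads; the cause was not tested. Recounting reads of 18 nt or more, also chosen after seeing the data, was done for miRNAs of the sets from which names were drawn. It moved none of the 87 with 20 or more reads by over 1.5 times. Depth limits miRNAs under 1.10 ppm in DCreg, and no setting replaces the missing replicates.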
